A study of Homo sapiens with 6 samples.

Results

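The Hippo core kinases and scaffolds were followed in MDA-MB-231 cells, an established human triple-negative breast cancer line, with and without knockdown of YAP1. The 10 genes were chosen by name among the 60612 genes listed, and they are STK3, STK4, SAV1, MOB1A, MOB1B, LATS1, LATS2, NF2, TAOK1 and MAP4K4. The series holds 6 RNA-sequencing libraries, 3 from cells with a control short hairpin (Sh-NC, genotype labelled WT) and 3 from cells with a hairpin against YAP1 (Sh-YAP1, genotype labelled YAP1 knockdown), each hairpin being stably expressed. All 6 libraries were taken at day 3 and are labelled as receiving no treatment. The labels name a single Sh-YAP1 group, so an effect of the hairpin outside YAP1 cannot be told apart from the loss of YAP1. Nothing in the labels says that the libraries of a group came from separate cultures, so p-values measure only the spread between these libraries. The line is known to carry a truncating mutation of NF2, which limits it as a model of NF2 function.

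In the Hippo pathway a chain of kinases restrains the transcriptional co-activators YAP1 and TAZ (WWTR1). TAOK and MAP4K kinases sit upstream, the MST kinases STK3 and STK4 act with the scaffold SAV1, and LATS1 and LATS2 act with the MOB1 adaptors to phosphorylate YAP1 and TAZ, which are then held in the cytoplasm or degraded. NF2 (merlin) brings LATS kinases to the membrane, and LATS2 and NF2 are known as genes that YAP1 and its DNA-binding partners, the TEAD factors, can induce in turn. The comparison asked whether RNA of the upstream cassette differed once YAP1 RNA was low.

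RNA of the targeted gene was low in every Sh-YAP1 library. YAP1 stood at 28.1, 26.2 and 22.9 FPKM under Sh-NC and at 3.35, 2.67 and 2.58 FPKM under Sh-YAP1 (log2 fold change -2.79, adjusted p = 0.0018, limma). Here and throughout, values of single libraries are in the order of replicates 1 to 3, and FPKM (fragment counts divided by transcript length and library size) is summed over the transcripts of a gene. FPKM summed to between 467493 and 475116 per library. No counts come with the values, so sequencing depth is unknown and counting intervals are not given. Genes known to be expressed by the line were high in all libraries, with a summed level of the 7 genes (VIM, CD44, KRT18, KRT8, EGFR, AXL and CAV1) of 2717 to 3355 FPKM under Sh-NC and 2657 to 2923 FPKM under Sh-YAP1, most of it VIM. Of the 7, AXL passed the test (256 ± 5.23 and 200.3 ± 9.28 FPKM, log2 fold change -0.35, adjusted p = 0.039, limma), and KRT18 (124 ± 1.68 and 105.5 ± 4.90 FPKM) and CAV1 (338 ± 7.37 and 231 ± 54.5 FPKM) did not overlap, with the lower values under Sh-YAP1 (SD, n = 3 each). Of 7 luminal and receptor genes, ESR1, PGR and CDH1 stayed under 1 FPKM in every library. FOXA1 was at 0.75 to 1.03 FPKM under Sh-NC and 0.36 to 0.71 FPKM under Sh-YAP1. The other members of this list were higher, ERBB2 at 15.9 ± 1.90 and 14.6 ± 0.23 FPKM, GATA3 at 6.20 ± 0.98 and 5.72 ± 1.43 FPKM, and EPCAM at 2.94 ± 0.37 and 2.67 ± 0.26 FPKM. The 7 summed to 23.5 to 28.8 FPKM under Sh-NC and 22.6 to 25.2 FPKM under Sh-YAP1. Of 8 genes of other cell types, PTPRC, CDH5, DCN and CD3E stayed under 1 FPKM, and PECAM1 was at 1.33 ± 0.50 and 1.20 ± 0.38 FPKM with overlap. The summed level of the 8, nearly all of it CD68, was 61.0 to 82.8 FPKM under Sh-NC and 68.7 to 82.0 FPKM under Sh-YAP1. COL1A2 (1.40 ± 0.51 and 0.30 ± 0.38 FPKM) and ALB (1.63 ± 0.15 and 0.42 ± 0.72 FPKM) were low and did not overlap, with the lower values under Sh-YAP1. The part of these genes in the results was not tested.

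The 250 bases before and 50 after a transcription start are shown for the LATS pair and the MOB1 pair, which are the paralog pairs with an entry for both genes, so that the start of LATS2, known as a target of YAP1 and TEAD, can be read beside that of its paralog. The sequences are from RefSeq (GRCh38.p14), read 5′ to 3′ on the strand of the gene, and the most upstream start is shown where a gene has several. Capitals mark the core TEAD motif GGAATG, searched on both strands (CATTCC on the other strand).
LATS2, chr13:21061537-21061836, minus strand: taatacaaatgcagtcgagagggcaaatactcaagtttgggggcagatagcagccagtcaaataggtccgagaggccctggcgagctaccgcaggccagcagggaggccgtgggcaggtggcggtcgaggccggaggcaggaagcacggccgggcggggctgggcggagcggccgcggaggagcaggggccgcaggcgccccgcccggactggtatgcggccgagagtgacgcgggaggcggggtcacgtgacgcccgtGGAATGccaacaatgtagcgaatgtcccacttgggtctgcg
LATS1, chr6:149718052-149718351, minus strand: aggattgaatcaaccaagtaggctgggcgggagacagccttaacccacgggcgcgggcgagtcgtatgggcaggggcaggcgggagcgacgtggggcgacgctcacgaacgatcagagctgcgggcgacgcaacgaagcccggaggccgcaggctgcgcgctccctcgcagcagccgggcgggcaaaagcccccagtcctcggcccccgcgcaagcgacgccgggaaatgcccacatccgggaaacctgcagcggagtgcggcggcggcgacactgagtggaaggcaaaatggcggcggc
MOB1A, chr2:74178830-74179129, minus strand: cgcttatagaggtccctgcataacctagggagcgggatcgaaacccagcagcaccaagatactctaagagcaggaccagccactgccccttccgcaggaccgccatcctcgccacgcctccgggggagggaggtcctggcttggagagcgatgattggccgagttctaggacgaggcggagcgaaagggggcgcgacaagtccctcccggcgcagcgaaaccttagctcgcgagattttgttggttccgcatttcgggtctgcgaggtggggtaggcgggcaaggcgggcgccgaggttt
MOB1B, chr4:70902119-70902418, plus strand: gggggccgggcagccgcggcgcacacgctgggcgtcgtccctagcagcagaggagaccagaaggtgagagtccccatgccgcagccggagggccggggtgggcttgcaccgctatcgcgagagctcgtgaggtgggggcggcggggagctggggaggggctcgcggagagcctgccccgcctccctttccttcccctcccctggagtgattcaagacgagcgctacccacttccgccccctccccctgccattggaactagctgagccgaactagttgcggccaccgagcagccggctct
Promoters were matched for 9 of the 10 members, not for STK3. The motif was found in 1 of the 14 windows of these 9 genes, that of LATS2, where it begins 10 bases into the transcript (counting the start as 1) on the sense strand. Of all 35116 windows of this length, 14% hold the motif on either strand. The last 25 bases of the LATS2 window lie in no LATS2 transcript of GENCODE 29, so the 2 annotations place its start differently. A match is a description of letters and does not show binding.

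None of the 10 members passed an adjusted p of 0.05 between Sh-YAP1 and Sh-NC (limma on log2(FPKM + 1), adjusted by Benjamini-Hochberg across 14770 genes). Of all genes tested 3.38% passed, 1.75% higher and 1.62% lower in Sh-YAP1. All 10 passed the filter on low values, a mean of at least 0.5 FPKM. At an unadjusted p under 0.05 there were 2 members, MAP4K4 and MOB1A, against 21.9% of all genes. The 2 groups did not overlap for 4 members, MAP4K4 and TAOK1 with higher and MOB1A and STK4 with lower values in Sh-YAP1, while 29.4% of all genes showed no overlap, 14.6% higher and 14.7% lower. The median log2 fold change was 0.02 over the members and 0.00 over all genes (-0.001 before rounding), and the median size of change was 0.11 and 0.16. For 9 of the 10 members the 95% interval of the log2 fold change lay within a 1.5-fold change in either direction on the log2(FPKM + 1) scale. The exception was MAP4K4, and with a pseudocount of 0.01, which compresses low values less, NF2 was a further exception.

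**Figure D1:**
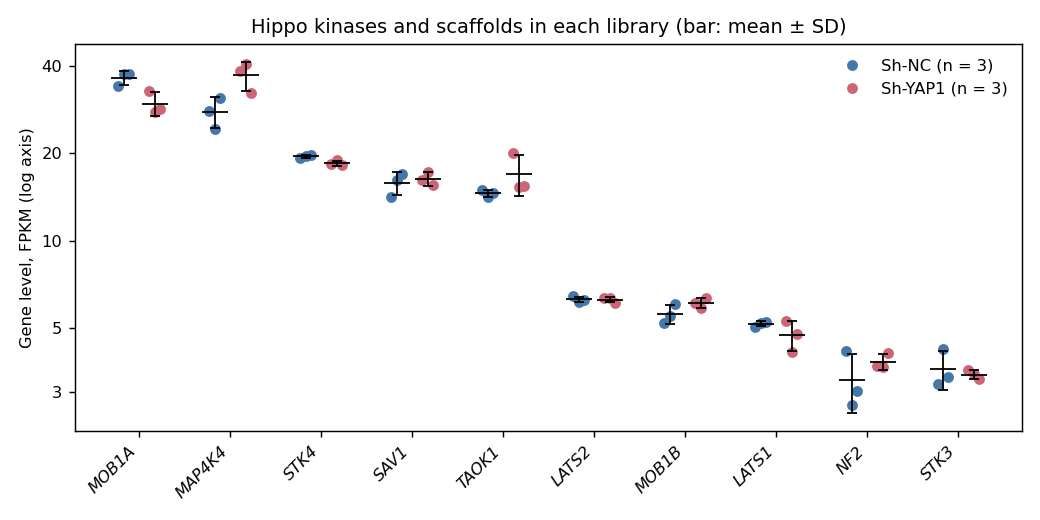
Level of each of the 10 genes (FPKM, log axis) in the 3 Sh-NC and 3 Sh-YAP1 libraries, ordered by the mean over all 6, with bars at the mean ± SD of a group. MOB1A (27.7 to 37.5 FPKM) and MAP4K4 (24.3 to 40.6 FPKM) lie highest, and NF2 and STK3 lie lowest, at 2.72 to 4.23 FPKM.

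Levels of the members spanned about an order of magnitude, and FPKM is a value per length, so genes can be ranked. MOB1A had the highest mean over the 6 libraries, 33.0 ± 4.26 FPKM (SD, n = 6), followed by MAP4K4 at 32.4 ± 6.14 FPKM, and the order of this pair differed between the groups, MOB1A being the higher one in all 3 Sh-NC libraries and MAP4K4 in all 3 Sh-YAP1 libraries. STK4 followed at 19.0 ± 0.63 FPKM, with no overlap with its neighbours MAP4K4 and SAV1. SAV1 at 16.0 ± 1.10 and TAOK1 at 15.7 ± 2.18 FPKM overlapped each other, and the highest TAOK1 value, 20.1 FPKM, lay above all values of STK4. LATS2, whose range lay below that of TAOK1, at 6.27 ± 0.12, MOB1B at 5.85 ± 0.41 and LATS1 at 4.95 ± 0.44 FPKM overlapped with their neighbours in range, although MOB1B was above LATS1 within each of the 6 libraries. NF2 at 3.57 ± 0.58 and STK3 at 3.53 ± 0.36 FPKM were the lowest and could not be separated, with NF2 the higher in 4 of 6 libraries. By percentile among the genes tested, MOB1A stood at 84.6 and STK3 at 33.0.

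Among the upstream kinases, MAP4K4, which can activate LATS kinases in parallel with the MST kinases, showed the largest difference of the 10. It stood at 27.9, 24.3 and 31.0 FPKM under Sh-NC and at 38.2, 40.6 and 32.3 FPKM under Sh-YAP1. All Sh-YAP1 libraries lay above all Sh-NC libraries. The mean was 27.7 ± 3.35 FPKM under Sh-NC and 37.0 ± 4.27 FPKM under Sh-YAP1 (SD, n = 3 each), and the log2 fold change of 0.40 (standard error 0.12, 95% interval 0.11 to 0.70) had an adjusted p of 0.13 from limma. The exact permutation p (two-sided) was 0.1, which is as low as 3 libraries against 3 can reach. TAOK1, a kinase that can activate the MST kinases, stood at 14.9, 14.1 and 14.6 FPKM under Sh-NC and at 20.1, 15.3 and 15.4 FPKM under Sh-YAP1. Its groups did not overlap, but Sh-YAP1 replicate 1 stood well above the other 5 libraries. The log2 fold change of TAOK1 was 0.20 (standard error 0.11, 95% interval -0.08 to 0.47, adjusted p = 0.364 from limma), and it was 0.08 without that library.

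The MST kinases and their scaffold differed little. STK4 (MST1) stood at 19.2, 19.5 and 19.6 FPKM under Sh-NC and at 18.3, 18.9 and 18.1 FPKM under Sh-YAP1. The groups were narrow and did not overlap, with means 5.32% apart, Sh-YAP1 being lower, but the log2 fold change of -0.08 (95% interval -0.23 to 0.08) had an adjusted p of 0.537 (limma). STK3 (MST2) stood at 3.21, 4.23 and 3.38 FPKM under Sh-NC and at 3.58, 3.46 and 3.33 FPKM under Sh-YAP1. All Sh-YAP1 values of STK3 fell within the Sh-NC range, and the log2 fold change was -0.04 (95% interval -0.30 to 0.22, adjusted p = 0.860, limma). SAV1, which tethers the MST kinases to LATS, stood at 14.2, 16.1 and 16.9 FPKM under Sh-NC and at 16.1, 17.3 and 15.6 FPKM under Sh-YAP1, again with overlap (log2 fold change 0.05, 95% interval -0.17 to 0.27, adjusted p = 0.786, limma).

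LATS2 had the log2 fold change nearest to 0 of the 10 members. It stood at 6.43, 6.16 and 6.23 FPKM under Sh-NC and at 6.35, 6.32 and 6.11 FPKM under Sh-YAP1. The means of 6.27 ± 0.14 and 6.26 ± 0.13 FPKM (SD, n = 3 each) differed by less than the spread within either group. The log2 fold change of 0.00 (-0.003 before rounding, standard error 0.07, adjusted p = 0.987, limma) had a 95% interval of -0.18 to 0.17, which is a ratio of 0.884 to 1.13 on the FPKM + 1 scale. LATS1 stood at 5.05, 5.21 and 5.26 FPKM under Sh-NC and at 5.28, 4.13 and 4.77 FPKM under Sh-YAP1. Sh-YAP1 replicate 1 had the highest LATS1 value of all 6 libraries and Sh-YAP1 replicate 2 the lowest, so the groups overlapped (log2 fold change -0.11, 95% interval -0.35 to 0.12, adjusted p = 0.554, limma). The value for LATS1 was -0.18 without Sh-YAP1 replicate 1 and -0.04 without Sh-YAP1 replicate 2. NF2 stood at 4.18, 2.72 and 3.03 FPKM under Sh-NC and at 3.71, 3.67 and 4.11 FPKM under Sh-YAP1, and the wide Sh-NC range contained all Sh-YAP1 values. Its log2 fold change was 0.18 (95% interval -0.16 to 0.51, adjusted p = 0.506, limma), and it was 0.32 without Sh-NC replicate 1 and 0.08 without Sh-NC replicate 2. Of 2 other genes known as YAP1 targets, CCN2 was at 235 ± 5.79 FPKM under Sh-NC and 203 ± 10.4 FPKM under Sh-YAP1, without overlap. Its log2 fold change was -0.21 (95% interval -0.37 to -0.06, adjusted p = 0.13, limma), and -0.10 with quantile normalization. The other, CCN1, was at 109 ± 11.6 and 109 ± 4.04 FPKM with overlap (log2 fold change 0.00, adjusted p = 0.999, limma, with a sign that turned under quantile normalization).

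**Figure D2:**
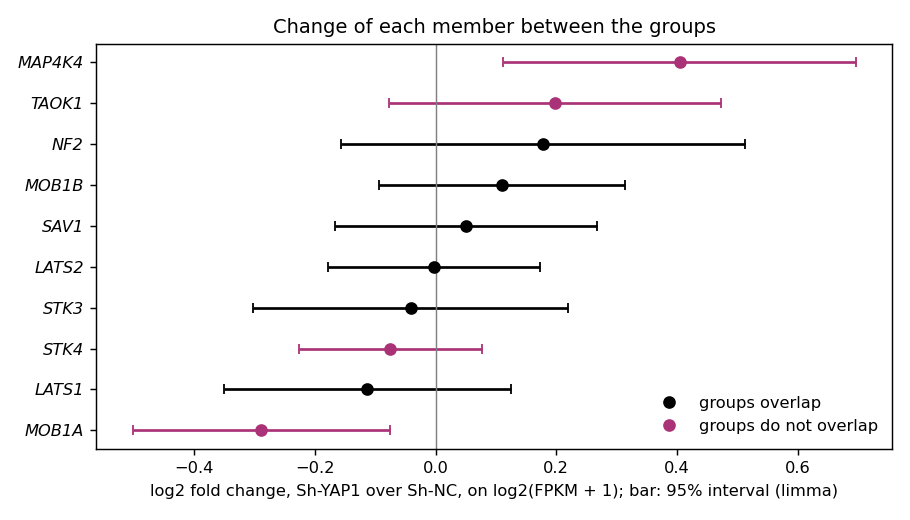
Log2 fold change of each member, Sh-YAP1 over Sh-NC, on the log2(FPKM + 1) scale, with its 95% interval from limma. The intervals of MAP4K4 (0.11 to 0.70) and MOB1A (-0.50 to -0.08) lie to one side of 0 before adjustment for multiple tests, and LATS2 sits at 0.

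The MOB1 adaptors, which bind and activate LATS kinases, had fold changes of opposite sign, neither of which passed the test. MOB1A stood at 34.1, 37.4 and 37.5 FPKM under Sh-NC and at 32.7, 27.7 and 28.4 FPKM under Sh-YAP1. Every Sh-YAP1 library lay below every Sh-NC library. The mean was 36.3 ± 1.95 FPKM under Sh-NC and 29.6 ± 2.74 FPKM under Sh-YAP1 (SD, n = 3 each). The log2 fold change was -0.29 (standard error 0.09, 95% interval -0.50 to -0.08, adjusted p = 0.13, limma). MOB1B stood at 5.22, 5.51 and 6.04 FPKM under Sh-NC and at 6.10, 5.88 and 6.33 FPKM under Sh-YAP1. Its groups overlapped (log2 fold change 0.11, 95% interval -0.09 to 0.31, adjusted p = 0.5, limma). In total, MOB1A and MOB1B together were at 41.9 ± 2.3 FPKM under Sh-NC and 35.7 ± 2.8 FPKM under Sh-YAP1 (SD, n = 3 each).

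The share of one paralog in a pair is taken within a library and does not depend on how libraries were scaled. MOB1B made up 13.3%, 12.8% and 13.9% of the MOB1 total in Sh-NC replicates 1 to 3 and 15.7%, 17.5% and 18.2% in Sh-YAP1 replicates 1 to 3. The Sh-YAP1 shares were all higher, by 3.82 percentage points on average (two-sided exact permutation p = 0.1, as low as the design can reach). LATS2 made up 56.0%, 54.2% and 54.2% of the LATS total in Sh-NC and 54.6%, 60.5% and 56.2% in Sh-YAP1, with overlap (exact permutation p = 0.2). STK4 made up 84.4 ± 1.92% of the MST total in Sh-NC and 84.2 ± 0.475% in Sh-YAP1 (SD, n = 3 each, exact permutation p = 1). No 50-base stretch was shared between transcripts of any pair of members in GENCODE 29, and between 0% (LATS2) and 4.51% (SAV1) of the 50-base stretches of a member occurred in a transcript of another gene. Exons of SAV1 overlap those of ATL1 on the opposite strand over 840 bases, and exons of MOB1B overlap those of DCK on the same strand over 199 bases, so reads there cannot be assigned with certainty.

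**Figure D3:**
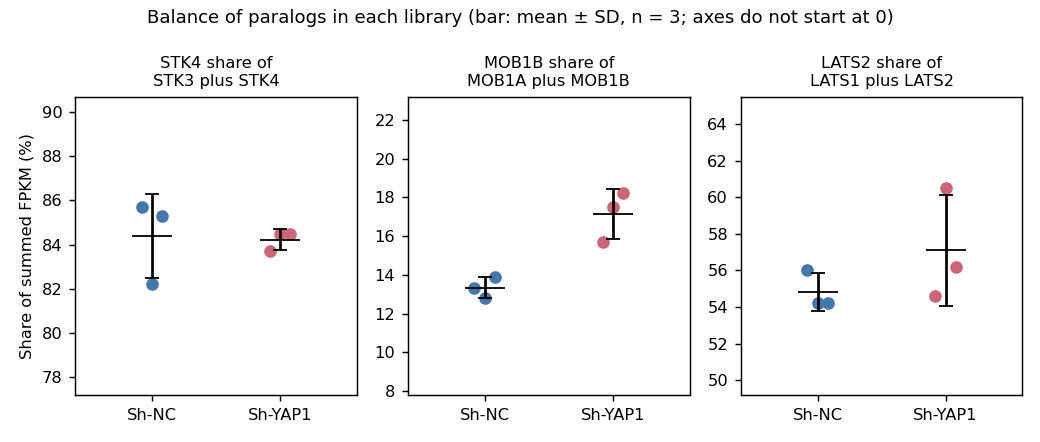
Share of STK4, MOB1B and LATS2 in the summed FPKM of its pair (percent, axes not starting at 0) in each library, with bars at the mean ± SD (n = 3). The MOB1B shares of 12.8% to 13.9% in Sh-NC and 15.7% to 18.2% in Sh-YAP1 do not overlap, whereas the other shares do.

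The LATS kinases were also set against their substrates. In quantities chosen after the values were seen, the LATS1 and LATS2 total was 11.4 ± 0.067 FPKM under Sh-NC and 11 ± 0.60 FPKM under Sh-YAP1 (SD, n = 3 each). YAP1 was 2.25 ± 0.24 times the LATS total in Sh-NC and 0.26 ± 0.026 times in Sh-YAP1. TAZ (WWTR1), the paralog of YAP1, was 3.67, 3.68 and 3.70 times the LATS total in Sh-NC replicates 1 to 3 and 4.48, 4.47 and 4.34 times in Sh-YAP1 replicates 1 to 3, so the Sh-YAP1 ratios were all higher. WWTR1 itself was at 42.2 ± 0.33 FPKM under Sh-NC and 48.7 ± 2.96 FPKM under Sh-YAP1, without overlap (SD, n = 3 each, log2 fold change 0.20, adjusted p = 0.164, limma). As these are bulk samples, fewer cells with a transcript and less of it per cell cannot be told apart.

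The files give 1 value per transcript without its identity, and the members have 95 transcripts, of which 49 passed a mean of 0.1 FPKM and were tested. None of the 49 passed an adjusted p of 0.05 (limma, Benjamini-Hochberg across 77655 transcripts), against 0.0515% of all transcripts. At an unadjusted p under 0.05 there were 6 of the 49, against 6.12% of all transcripts. Of the 49, 14 had no overlap between the groups, 6 higher and 8 lower in Sh-YAP1, against 13.1% of all transcripts. The 49 come from only 10 genes, with 14 from MAP4K4, so they are not independent of each other. Over all 6 libraries, the main transcript carried from 59.3% of the level for NF2 and 64.4% for LATS1 to 94.2% for MOB1A and 100% for LATS2, and 26.1% for MAP4K4. By group, its share was 49% under Sh-NC and 68.2% under Sh-YAP1 for NF2, and 64.3% and 88.2% for STK3. The main STK3 transcript stood at 2.77, 1.32 and 2.87 FPKM under Sh-NC and at 2.91, 3.25 and 2.99 FPKM under Sh-YAP1. The second STK3 transcript, named after its values were seen, was at 1.63 FPKM in Sh-NC replicate 2 and at 0.00 FPKM in every other library. The low STK3 share under Sh-NC thus rests mostly on that library. The main MOB1A transcript stood at 31.6, 35.2 and 34.9 FPKM under Sh-NC and at 31.4, 26.1 and 27.3 FPKM under Sh-YAP1, a difference in means of -5.62 FPKM. A minor LATS1 transcript was at 0.36, 0.37 and 0.57 FPKM in Sh-NC and was listed at 0 in each library under Sh-YAP1. It is named as the LATS1 transcript with the largest change and passed the filter only through Sh-NC, so these values are a description. The main NF2 transcript stood at 1.01, 2.36 and 1.5 FPKM under Sh-NC and at 2.07, 2.44 and 3.33 FPKM under Sh-YAP1, with overlap, and the next one by level, named after its values were seen, was at 2.15 FPKM in Sh-NC replicate 1 but at 0.00 and 0.06 FPKM in Sh-NC replicates 2 and 3.

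The transcripts of MAP4K4 differed between libraries in opposite directions. The transcript with the highest mean stood at 1.76, 2.38 and 1.23 FPKM under Sh-NC and at 23.4, 19.8 and 2.10 FPKM under Sh-YAP1. It was thus high in only 2 of the 3 Sh-YAP1 libraries, and replicate 3 lay within the Sh-NC range (adjusted p = 0.769, limma). Of further transcripts, named after their values were seen, the fourth by level stood at 5.17, 3.22 and 5.32 FPKM under Sh-NC and at 0.04, 0.05 and 4.04 FPKM under Sh-YAP1, low in the same pair of libraries. The fifth stood at 0.76, 1.86 and 0.39 FPKM under Sh-NC and at 2.61, 4.29 and 4.91 FPKM under Sh-YAP1, higher in all 3 (adjusted p = 0.576, limma). Summed over transcripts, those with a higher mean in Sh-YAP1 gained 17.2 FPKM and those with a lower mean changed by -7.94 FPKM. The transcript ranked first through its Sh-YAP1 values, with a mean of 1.79 FPKM under Sh-NC and 15.1 FPKM under Sh-YAP1. The log2 fold change of MAP4K4 was -0.28 without it (adjusted p = 0.844, limma), a lowering that this choice of transcript fixes in advance.

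**Figure D4:**
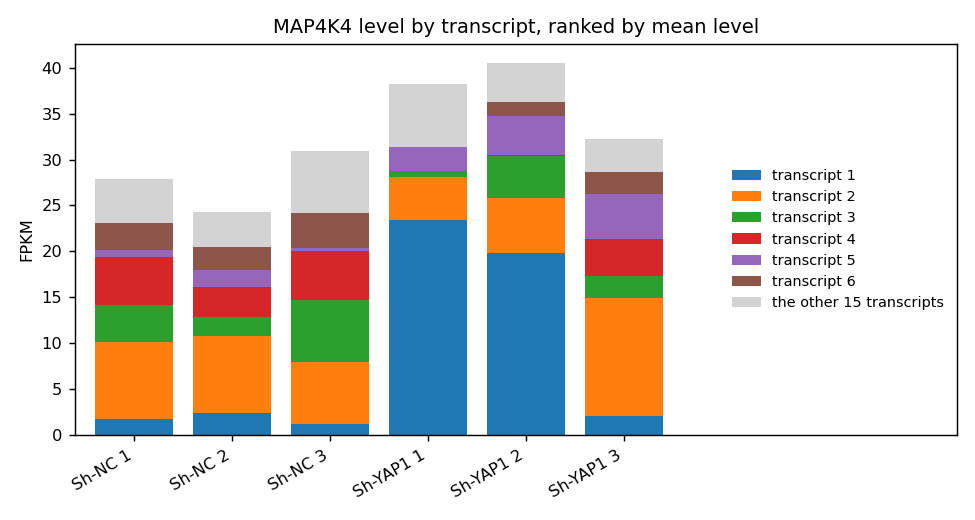
MAP4K4 level (FPKM) in each library, stacked by transcript for the 6 transcripts with the highest mean and, in grey, the other 15. Transcript 1 stands at 23.4 and 19.8 FPKM in Sh-YAP1 replicates 1 and 2 and at 1.23 to 2.38 FPKM in the other 4 libraries.

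The rest of the pathway was described with 81 further genes in 4 lists, of which 72 passed the filter. At an adjusted p under 0.05 (limma) there were 5 of 72, 2 higher and 3 lower in Sh-YAP1, which is 6.94% against 3.38% of all genes. The lists were chosen with earlier results of these data known, so these shares do not test for an excess in the pathway. The median log2 fold change of the 72 was 0.04. The genes that passed were STK38 and MOB3C among 18 upstream and sister kinases and MOB proteins, FRMD6 among 23 scaffolds and adaptors, and AJUBA and SIAH2 among 16 LATS inhibitors and turnover factors. None of 15 subunits of the STRIPAK complex, a phosphatase that restrains the MST kinases, passed, while 6 of them had an unadjusted p under 0.05 (limma), a share to be read against 21.9% of all genes.

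STK38 (NDR1), a sister kinase of the LATS kinases that also binds MOB1, fell. It stood at 22.4, 22.2 and 23.0 FPKM under Sh-NC and at 15.8, 13.6 and 14.4 FPKM under Sh-YAP1, and a single transcript is listed for it. This is a log2 fold change of -0.60 (standard error 0.08) at an adjusted p of 0.0187 from limma. Its paralog STK38L, on the same list, had the higher mean under Sh-YAP1, at 5.56 ± 1.24 and 7.61 ± 1.38 FPKM with overlap (log2 fold change 0.40, adjusted p = 0.254, limma). Whether STK38 differed more than LATS1 and LATS2 was not tested. FRMD6, a FERM-domain protein placed upstream of the kinases, fell from 67.6 ± 2.48 to 44.9 ± 2.93 FPKM (SD, n = 3 each; log2 fold change -0.58, adjusted p = 0.0173, limma). AJUBA, a LIM protein that inhibits LATS kinases, fell from 70.9 ± 5.45 to 47.8 ± 1.86 FPKM (log2 fold change -0.56, adjusted p = 0.0232, limma). The groups did not overlap for STK38, FRMD6 or AJUBA. Without the transcript of highest mean, the log2 fold change was -0.21 for FRMD6 (adjusted p = 0.82) and -0.36 for AJUBA (adjusted p = 0.782, limma).

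SIAH2, a ubiquitin ligase known to destabilise LATS2 in hypoxia, rose from 8.56 ± 0.68 to 12.6 ± 0.26 FPKM (SD, n = 3 each; log2 fold change 0.51, adjusted p = 0.0298, limma), a call lost with no filter on low values (adjusted p = 0.054). MOB3C, a MOB protein of the same family as MOB1, rose from 1.76 ± 0.13 to 2.99 ± 0.30 FPKM (log2 fold change 0.53, adjusted p = 0.0441, limma), a call lost with no filter on low values (adjusted p = 0.13), quantile normalization (adjusted p = 0.051) and median centring (adjusted p = 0.0501). Without its transcript of highest mean the log2 fold change of MOB3C was 1.01 (adjusted p = 0.674, limma). Without 1 library at a time, the count of 5 related genes went to 0 (without Sh-NC replicates 1 or 2 or Sh-YAP1 replicates 2 or 3), to 1 (without Sh-NC replicate 3) or to 2 (without Sh-YAP1 replicate 1). With each library left out no log2 fold change of the 5 turned in sign, and STK38 stayed between -0.65 and -0.55 with each library left out.

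The 2 most abundant genes of each list did not pass the test, apart from FRMD6. The kinase MAP4K5 was at 28.5 ± 0.50 FPKM under Sh-NC and 34.1 ± 3.30 FPKM under Sh-YAP1 (log2 fold change 0.25, adjusted p = 0.171, limma), also without overlap, and STK10 was at 31.1 ± 1.23 and 31.4 ± 0.97 FPKM. PPP2CA, the catalytic subunit of the phosphatase PP2A within STRIPAK, was at 64.0 ± 1.5 and 53.4 ± 1.74 FPKM without overlap (log2 fold change -0.26, adjusted p = 0.0793, limma), and its scaffold subunit PPP2R1A was at 56.3 ± 4.68 and 51.3 ± 3.28 FPKM. The polarity scaffold DLG1 was at 67.3 ± 4.88 and 68.3 ± 2.70 FPKM. Of the turnover factors, the chaperone HSP90AA1 was at 606 ± 80.8 and 649 ± 26.2 FPKM and the ubiquitin ligase adaptor DDB1 at 182 ± 8.15 and 181 ± 11.9 FPKM (SD, n = 3 each).

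**Figure D5:**
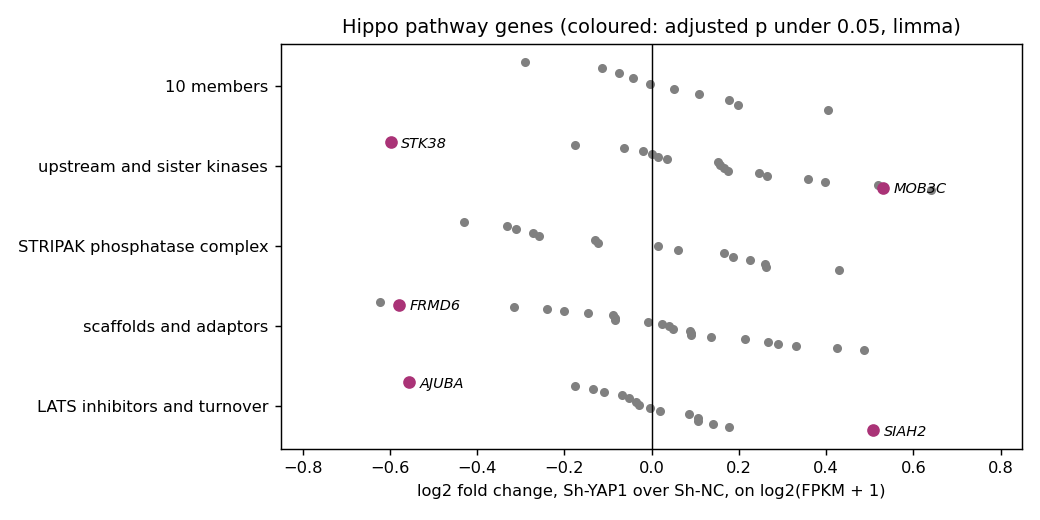
Log2 fold change, Sh-YAP1 over Sh-NC, on the log2(FPKM + 1) scale, for the 10 members and the 72 tested genes of the 4 related lists, with genes at an adjusted p under 0.05 (limma) coloured and named. The members lie between -0.29 and 0.40, and the 5 coloured genes lie at 0.51 or more, or at -0.56 or less.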

How the data were processed

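RNA from 3 Sh-NC and 3 Sh-YAP1 libraries of MDA-MB-231 cells was sequenced. The study's methods describe RNA-sequencing under another series accession, so the link of these libraries to that description rests on cell line and group labels. The authors deposited FPKM values, 1 per transcript and library, with a gene identifier and 2 decimals. Per the labels' processing notes, HISAT2 2.0, Bowtie 0.12.2 and hg19 were used, with no role given, and the quantification tool and annotation are not given in the sources used here. The gene value was the sum of all rows with its identifier, so it also moves when fragments are assigned to shorter or longer transcripts. Symbols came from a gene name table supplied with the reference, in which 60401 of 60612 identifiers matched. The number of rows equalled the number of GENCODE 29 transcripts for 9 of 10 members (NF2 had 15 rows and 11 transcripts).

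Values were analysed as log2(FPKM + 1) with limma 3.58.1 in R 4.3.3 (eBayes with trend, condition as the only factor) over genes averaging 0.5 FPKM or more, or transcripts averaging 0.1 FPKM or more, with Benjamini-Hochberg adjustment. The sequencing depth is unknown. Fold changes on this scale understate those of low genes. Paralog shares were compared with exact permutation tests (scipy 1.17.1). The code was tested on simulated data. Genes named were the members, YAP1, WWTR1, CCN1, CCN2 and GAPDH. Of each related list, those with an adjusted p under 0.05 and the 2 most abundant were named, and STK38L after its values were seen. Genes of the marker lists were named as checks, those given by group after their values were seen. Transcripts named were the most abundant of a member and the one with the largest change. A further 2 of MAP4K4, 1 of NF2 and 1 of STK3 were named after their values were seen. Promoters named were those of paralog pairs with entries for both genes. GAPDH stood at 3974 ± 95.4 FPKM under Sh-NC and 3623 ± 181 FPKM under Sh-YAP1 (SD, n = 3 each). The related lists held 83 symbols, of which 2 (INADL and MPP5) are older names of listed genes. The members and lists were chosen with earlier results of these data known. Alternatives covered the pseudocount, scaling, filter, trend, replicate block, each library left out and the rows summed. Protein sequences were not used here.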

Additional observations from a re-analysis of the deposited data

How the results depend on the processing

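The count of 0 members at an adjusted p under 0.05 (limma) was the same under all 16 alternatives, with 1 to 3 members at an unadjusted p under 0.05, and the count of 0 member transcripts was the same under the 14 that apply to transcripts. The count of 499 genes went to 232 without a filter on low values, to 1 with the replicate number as a block (2779 at an unadjusted p under 0.05), to between 78 and 171 with each library left out, and to 0 without the transcript of highest mean (716 at an unadjusted p under 0.05). The related genes called went from 5 to 3 without a filter, to 0 with the block (20 at an unadjusted p under 0.05), to between 0 and 2 with each library left out, and to 0 without the transcript of highest mean (6 at an unadjusted p under 0.05). Libraries with the same number deviated from the group mean with correlations of -0.028, 0.062 and 0.004, and 2 of 6 libraries correlated best with their own number, so the numbers were not taken as pairs. The difference in STK4 share lay between -1.3 and 0.452 percentage points with each library left out, against -0.196, was -1.5 points when rows under 0.1 FPKM were dropped (exact permutation p = 0.1) and 14 points without the transcripts of highest mean. That of MOB1B lay between 3.29 and 4.55 points and that of LATS2 between 0.576 and 3.52 points with each library left out. Without the transcripts of highest mean they were 7.59 points (exact permutation p = 0.2) and 0.156 points (exact permutation p = 1). Those transcripts were ranked over all 6 libraries, so the ranking is not independent of a difference between the groups.

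Directions that turned belonged to genes not called, and the cause was not tested. Without the transcript of highest mean, the log2 fold change was 0.001 for STK4, -0.12 for SAV1, -0.16 for MOB1B, -0.151 for NF2, -0.279 for MAP4K4, -0.026 for STK10 and 0.08 for DDB1. With no turn in sign it was 0.010 for TAOK1, -0.560 for MOB1A, -0.430 for LATS1 and -0.550 for STK3. STK3 was at 0.074 when rows under 0.1 FPKM were dropped. Quantile normalization gave 0.056 for CCN1 and 0.067 for DDB1, and median centring -0.002 for STK10. With each library left out, STK3 lay between -0.103 and 0.053, SAV1 between -0.019 and 0.102, LATS2 between -0.014 and 0.013, CCN1 between -0.090 and 0.051, STK10 between -0.012 and 0.043, DLG1 between -0.010 and 0.081 and DDB1 between -0.050 and 0.044. YAP1 stayed between -3.17 and -2.46 and lost its call only without its transcript of highest mean (adjusted p = 0.0753, limma). Scaling moved the median of all genes by under 0.02, but quantile normalization moved abundant genes more, CCN2 from -0.211 to -0.096, GAPDH from -0.134 to -0.066 and HSP90AA1 from 0.107 to 0.212. The unknown depth limits all values of genes near 0.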
